A study of Rattus norvegicus with 18 samples.

Results

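Metallothioneins are small, cysteine-rich proteins that hold zinc and copper in the cell, and they were followed here with the zinc-sensing transcription factor Mtf1 and 4 zinc transporters in cultured rat glia exposed to amyloid fibrils. The 8 genes, Mt1a, Mt2A, Mt3, Mtf1, Slc30a1, Slc39a1, Slc39a8 and Slc39a14, were taken by symbol from a list. They are 8 of the 17307 genes listed in the astrocyte tables and of the 17327 listed in the microglia tables. The gene called Mt1a in the microglia tables stands in the astrocyte tables as Mt1, which RefSeq gives as the same gene, so 7 symbols were found there as written and 8 with this synonym. All 8 passed the filter on low counts in both cell types.

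The greatest fold changes were in microglia. Mt2A, which was close to the detection limit in untreated microglia, was 175-fold higher with Aβ42 fibrils and 103-fold higher with Aβ40 fibrils, and Mt1a was 12.2-fold and 8.73-fold higher. In astrocytes, where Mt1a and Mt2A were already abundant, neither gene changed past the threshold. The zinc and manganese importer Slc39a14 rose in both cell types, 7.74-fold and 6.36-fold in astrocytes and 3.60-fold and 3.72-fold in microglia with Aβ42 and Aβ40 fibrils.

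The cells came from the cortex of wild-type (WT) Sprague–Dawley rat pups at postnatal day 2. Microglia were shaken off mixed glial cultures, and the layer that stayed on the flask after further shaking gave the astrocytes. After a change to serum-free medium with albumin, each cell type was left without fibrils (control) or received Aβ42 or Aβ40 fibrils at 25 µM for 24 h, and RNA was sequenced from 3 replicates of each of the 6 groups, 18 libraries in all. Aβ42 and Aβ40 are the longer and shorter common forms of the amyloid-β peptide. How many pups were pooled, and whether replicates were separate cultures, is not given in the sources used here, so the p-values measure the spread between these samples, which may be technical.

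Metallothioneins bind zinc and copper through their cysteines and give the metal up again when it is scarce or when the cysteines are oxidized. Mtf1 senses a rise of free zinc and switches on metallothionein genes and Slc30a1 by binding short metal response elements in their promoters. The Slc30 family moves zinc out of the cytosol, with Slc30a1 in the plasma membrane, and the Slc39 family moves zinc into it. In the brain, Mt1 and Mt2 are known chiefly from astrocytes and are inducible by metals, glucocorticoids and cytokines, while Mt3 is a brain-enriched form that responds little to metals.

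The count tables hold whole reads per gene, and all levels below are CPM, the reads of a gene relative to its library's total as scaled by the TMM method of edgeR, so they compare 1 gene between libraries and not genes with each other. Reads counted on genes ranged from 3674043 to 19013919 in astrocyte libraries and from 2271834 to 22274367 in microglia libraries, and a floor of 3 counts corresponds to 0.160 to 0.835 CPM and 0.130 to 1.38 CPM. Replicates of the astrocyte control differed more than the treated astrocyte libraries, with a mean correlation of 0.947 to 0.965 against 0.991 to 0.994 within the fibril groups, and microglia Aβ42 replicate 1 correlated least with its group, at 0.961. The cell identities were checked with 10 markers for each type. The astrocyte markers summed to 7552 to 8833 CPM in untreated astrocytes and to 209 to 233 CPM in untreated microglia, and the microglia markers to 312 to 384 CPM and 6563 to 7898 CPM. Summed, the microglia markers were lower with fibrils in both cultures, at 2218 to 3138 CPM in treated microglia and 31.7 to 80.4 CPM in treated astrocytes. They did not move together in microglia, where Csf1r went from 2323 to 2745 CPM in controls to 147 to 189 CPM with fibrils, Tyrobp from 402 to 524 CPM to 339 to 421 CPM, and Itgam from 348 to 395 CPM to 642 to 783 CPM. Markers of the oligodendrocyte lineage summed to 1957 to 2829 CPM over all microglia libraries and to 1267 to 2569 CPM over all astrocyte libraries. In these bulk samples fewer cells of a type and less RNA per cell cannot be told apart.

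Mt1, Mt2A, Mt3 and Mt4 lie next to each other on rat chromosome 19 in the RefSeq annotation. The 250 bases before the start of transcription of the 3 expressed genes are shown because Mt1a and Mt2A moved together in microglia while their neighbour Mt3 did not. They are on the minus strand of GRCr8, at chr19:10832976-10833225 for Mt1a, chr19:10838709-10838958 for Mt2A and chr19:10856081-10856330 for Mt3, and capitals mark each match to the core of the metal response element, TGCACNC or TGCGCNC on either strand.
Mt1a: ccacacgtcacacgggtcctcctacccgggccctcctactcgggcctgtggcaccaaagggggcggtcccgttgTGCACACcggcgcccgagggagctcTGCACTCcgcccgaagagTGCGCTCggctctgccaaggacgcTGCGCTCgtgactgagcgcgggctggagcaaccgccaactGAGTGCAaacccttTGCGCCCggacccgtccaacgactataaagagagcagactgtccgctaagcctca
Mt2A: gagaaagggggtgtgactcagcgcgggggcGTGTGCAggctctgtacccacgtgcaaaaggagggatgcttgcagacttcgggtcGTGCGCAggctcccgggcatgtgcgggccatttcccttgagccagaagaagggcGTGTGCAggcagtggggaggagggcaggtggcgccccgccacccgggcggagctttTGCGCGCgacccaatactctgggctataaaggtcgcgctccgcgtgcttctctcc
Mt3: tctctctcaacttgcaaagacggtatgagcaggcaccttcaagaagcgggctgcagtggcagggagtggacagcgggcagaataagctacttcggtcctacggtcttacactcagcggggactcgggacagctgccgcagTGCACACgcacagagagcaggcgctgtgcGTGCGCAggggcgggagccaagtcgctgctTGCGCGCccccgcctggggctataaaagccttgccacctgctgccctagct
Matches that overlap were counted as 1. The Mt1a promoter holds 6 such matches, that of Mt2A 4 and that of Mt3 3. Among all 33469 rat promoters of this length in the RefSeq table, 20.6% hold at least 1 match, 0.732% at least 3, 0.128% at least 4 and 0.0239% at least 6. The promoters of Mtf1 and Slc30a1 hold 2 matches each, that of Slc39a1 holds 1 and that of Slc39a8 holds 0. The core of the antioxidant response element, TGACNNNGC on either strand, occurs once in the promoters of Mt1a, Mt2A, Slc30a1, Slc39a1 and Slc39a8, 2 times in that of Mtf1 and not in that of Mt3, against 10.1% of all promoters with at least 1. The element bound by STAT factors, TTCNNNGAA, was found only in the Slc39a8 promoter among the 7 members with an entry, and in 7.67% of all promoters. A match is a stretch of letters and not a bound site, and binding was not measured.

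**Figure D1:**
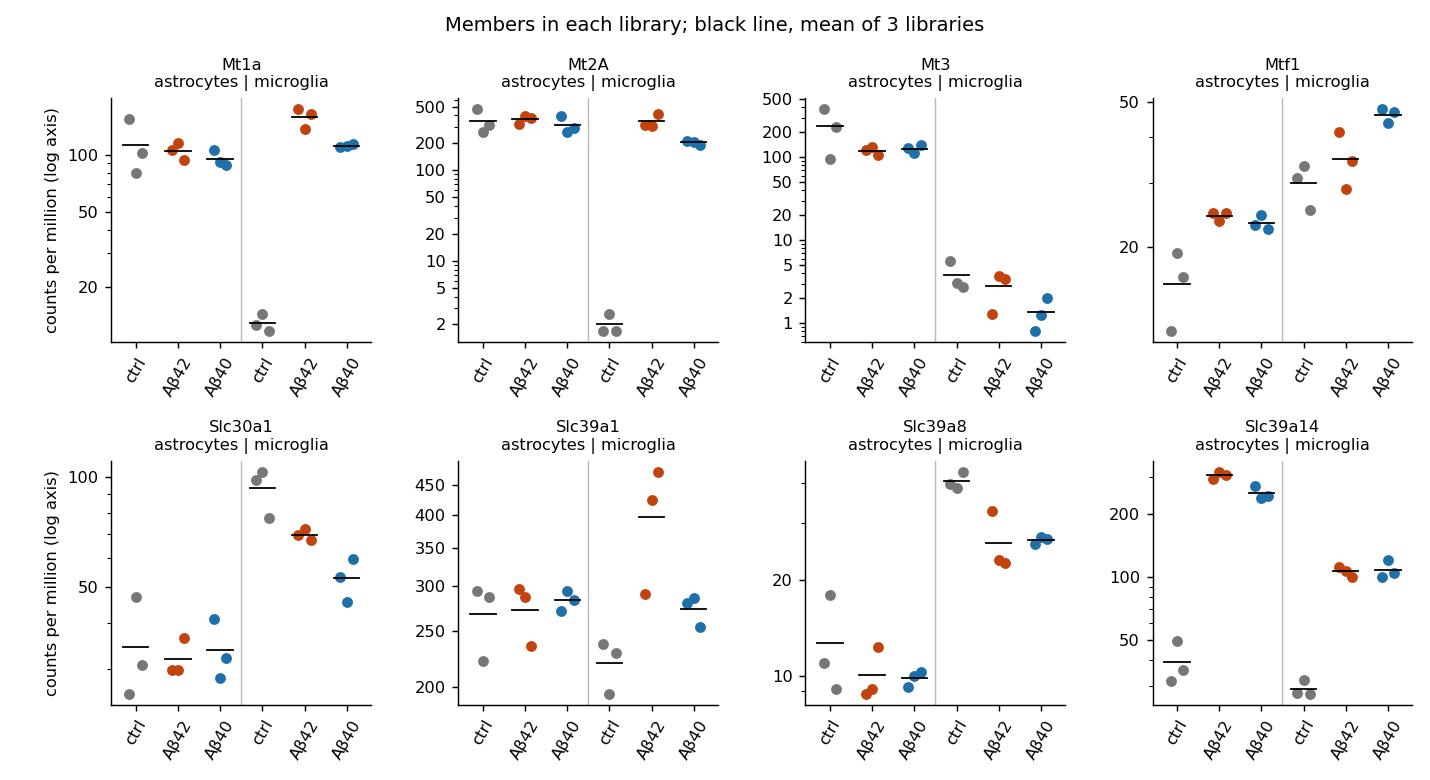
CPM of the 8 members in each library (points, log axis; scaled over all 18 libraries) for control, Aβ42 and Aβ40 groups of astrocytes (left of the grey line) and microglia (right), with the mean of 3 libraries as a black line. Mt1a and Mt2A are low in the 3 control microglia libraries alone, and Slc39a14 is higher with fibrils in both cell types.

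In microglia, 4 of the 8 members rose and 2 fell with Aβ42 fibrils, where 27.1% of the 10837 genes tested were called higher and 26.6% lower. With Aβ40 fibrils 4 rose and 3 fell, against 19.6% called higher and 21.4% lower. Mt3, counted among the 3, had 3 to 5 reads in the Aβ40 libraries. A gene was called where its p-value from the quasi-likelihood test of edgeR, adjusted by the Benjamini-Hochberg procedure over all genes tested, was under 0.05, and fold changes are fitted values. Both comparisons use the same 3 control libraries.

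Of the metallothioneins, Mt1a and Mt2A rose. Mt2A had 1.53, 2.32 and 1.53 CPM in the control libraries, from 13, 12 and 10 reads. It had 285, 270 and 363 CPM with Aβ42 fibrils and 189, 183 and 172 CPM with Aβ40 fibrils. Every treated library was above every control library by a wide margin, and the Aβ42 libraries were all above the Aβ40 libraries. The log2 fold change of Mt2A was 7.45 ± 0.20 (SE, adjusted p = 2.45e-10) with Aβ42 and 6.69 ± 0.20 (adjusted p = 5.38e-10) with Aβ40 fibrils. By p-value this placed Mt2A at position 4 and position 7 of the 10837 genes.

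Mt1a, the other widely inducible metallothionein, started from a higher level. It had 11.3, 12.7 and 10.5 CPM in control microglia, 160, 120 and 144 CPM with Aβ42 and 98.2, 99.3 and 104 CPM with Aβ40 fibrils. The 3 groups did not overlap and followed the same order as for Mt2A. The log2 fold change was 3.61 ± 0.14 (adjusted p = 1.49e-09) and 3.13 ± 0.14 (adjusted p = 5.51e-09). The increases of Mt1a and Mt2A were called under all 13 alternatives in each comparison.

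Mt3 was low in microglia, and close to the detection limit with Aβ40 fibrils and in Aβ42 replicate 1. It had 43, 14 and 16 reads in control libraries (5.07, 2.70 and 2.44 CPM), 3, 76 and 53 reads with Aβ42 (1.20, 3.29 and 3.02 CPM) and 3, 5 and 4 reads with Aβ40 fibrils (0.724, 1.12 and 1.84 CPM). The Aβ42 libraries overlapped the controls, and the Aβ40 libraries lay below them. Its log2 fold change was -0.26 ± 0.32 (adjusted p = 0.515) with Aβ42 and -1.65 ± 0.51 (adjusted p = 0.0201) with Aβ40 fibrils. The latter was called in 9 of 12 alternatives and rests on 3 to 5 reads in each Aβ40 library. The filter of 10 counts in every library left Mt3 out.

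The order of Mt1a and Mt2A within a library also changed. The ratio of Mt2A to Mt1a reads, which does not depend on library scaling, was 0.135, 0.182 and 0.145 in control microglia, 1.78, 2.24 and 2.52 with Aβ42 and 1.92, 1.84 and 1.66 with Aβ40 fibrils. All treated libraries had more Mt2A than Mt1a reads and all controls fewer. With 0.5 added to each count, the geometric mean of the ratio was 13.6-fold higher with Aβ42 and 11.4-fold higher with Aβ40 fibrils, each with an exact two-sided permutation p = 0.1, the smallest that 3 against 3 libraries allow. In astrocytes the ratio was 3.03 to 3.31 in controls, 3.06 to 4.05 with Aβ42 (exact permutation p = 0.2) and 2.89 to 3.74 with Aβ40 fibrils (exact permutation p = 0.7), and these ranges overlapped. Mt1a and Mt2A are short and similar genes, and how reads that fit more than 1 copy were assigned is not given in the sources used here, so the split between them is uncertain.

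Markers of other cell types were compared beside this increase. The 10 astrocyte markers in microglia summed to 209 to 233 CPM in controls, 210 to 249.4 CPM with Aβ42 and 197 to 219 CPM with Aβ40 fibrils, ranges that overlap, with 8 to 10 of the 10 markers over 3 counts in a library. Within the sum, members moved apart. Slc1a3 was at 69.0 to 77.8 CPM in controls and at 17.6 to 21.7 CPM with fibrils. Aldoc was at 52.0 to 58.9 CPM in controls, 80.8 to 115 CPM with Aβ42 and 33.1 to 51.7 CPM with Aβ40 fibrils. Aqp4 was at 12.4 to 18.5 CPM in controls, 12.5 to 27.2 CPM with Aβ42 and 32.9 to 35.9 CPM with Aβ40 fibrils. Of the others, Gfap was at 32.8 to 43.8 CPM in controls and at 24.4 to 41.3 CPM with fibrils. Gja1 was at 14.5 to 19.6 CPM in controls and at 22.8 to 53.3 CPM with fibrils, and Gjb6 went from 0 or 1 read to 3 to 33 reads.

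Summed markers of fibroblasts, neurons and the oligodendrocyte lineage were higher in treated microglia, and those of endothelial cells were lower. The 6 fibroblast markers summed to 59.8 to 75.1 CPM in controls, 138 to 165 CPM with Aβ42 and 121 to 128 CPM with Aβ40 fibrils, with Dcn going from 0 to 7 reads in controls to 62.0 to 84.8 CPM with fibrils while Col1a2 stayed at or under 1.21 CPM. The 5 neuron markers summed to 228 to 245 CPM in controls and 315 to 375 CPM with fibrils. The 7 oligodendrocyte-lineage markers summed to 1957 to 2160 CPM in controls, 2180 to 2829 CPM with Aβ42 and 2202 to 2660 CPM with Aβ40 fibrils. Among them Pdgfra went down, from 110 to 127 CPM in controls to 62.8 to 72.8 CPM with fibrils. The 5 endothelial markers summed to 161 to 173 CPM in controls, 35.0 to 59.2 CPM with Aβ42 and 79.2 to 103 CPM with Aβ40 fibrils. Most of this sum was Flt1, at 152 to 163 CPM in controls, 28.9 to 44.8 CPM with Aβ42 and 64.0 to 78.6 CPM with Aβ40 fibrils. Cdh5 went the other way, from 4.64 to 5.34 CPM in controls to 13.6 to 20.7 CPM with Aβ40 fibrils, and Cldn5 had 0 reads. The microglia markers summed to 2218 to 3092 CPM with Aβ42 and 2630 to 3138 CPM with Aβ40 fibrils against 6563 to 7898 CPM in controls, and the part of any of these marker lists in the rise of Mt1a and Mt2A was not tested.

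**Figure D2:**
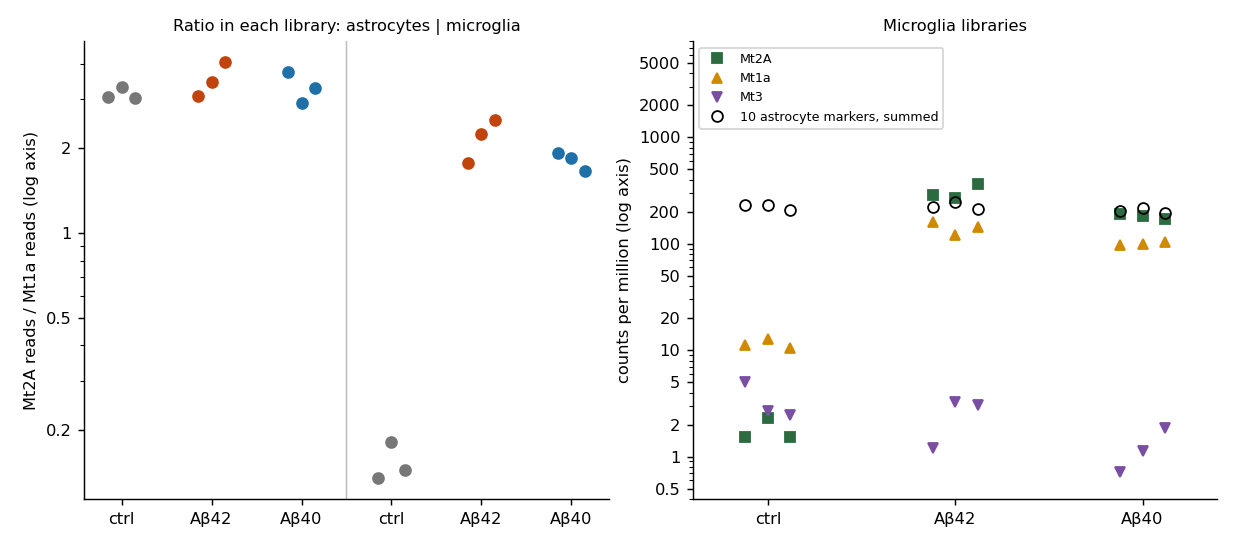
Left, reads of Mt2A divided by reads of Mt1a in each of the 18 libraries (log axis). Right, CPM of Mt2A, Mt1a and Mt3 and the summed CPM of 10 astrocyte markers in the 9 microglia libraries (log axis). The ratio is below 0.2 in control microglia and above 1.6 elsewhere, and Mt2A goes from under 2.4 to over 170 CPM while the marker sum, whose members moved in both directions, lies between 197 and 249.4 CPM.

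Of the zinc importers, Slc39a14 rose with both fibrils in microglia. Its product, ZIP14, carries zinc, manganese and non-transferrin-bound iron across the plasma membrane. It had 24.97, 28.8 and 25.01 CPM in controls, 102, 94.3 and 87.9 CPM with Aβ42 and 89.3, 108 and 94.7 CPM with Aβ40 fibrils. The treated libraries were all above the controls, and the fibril groups overlapped each other. Against control this was a log2 fold change of 1.85 ± 0.12 (adjusted p = 9.68e-08) and 1.89 ± 0.12 (adjusted p = 1.20e-07).

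Slc39a8, whose product ZIP8 is the closest relative of ZIP14 and carries the same metals, went the other way. It had 35.9, 34.6 and 39.4 CPM in controls, 30.0, 20.4 and 19.7 CPM with Aβ42 and 23.2, 24.4 and 24.4 CPM with Aβ40 fibrils. No treated library reached the lowest control. It fell by 0.73 on the log2 scale with Aβ42 (SE 0.15, adjusted p = 0.00170) and by 0.61 with Aβ40 fibrils (SE 0.16, adjusted p = 0.00900).

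Slc39a1, a broadly expressed importer of the plasma membrane, had 214, 174 and 208 CPM in controls, 266, 374 and 417 CPM with Aβ42 and 251, 256 and 231 CPM with Aβ40 fibrils. All treated libraries were above the controls, and the lowest Aβ42 library, replicate 1, was close to the Aβ40 libraries. The log2 fold change was 0.83 ± 0.15 (adjusted p = 6.46e-04) with Aβ42 and 0.31 ± 0.15 (adjusted p = 0.127) with Aβ40 fibrils.

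The exporter Slc30a1 fell. It had 88.5, 92.5 and 70.0 CPM in control microglia, 63.6, 63.4 and 59.0 CPM with Aβ42 and 48.0, 40.9 and 54.2 CPM with Aβ40 fibrils. The groups did not overlap, with the Aβ40 libraries lowest. It fell by 0.43 on the log2 scale with Aβ42 (SE 0.13, adjusted p = 0.0151, called in 10 of 13 alternatives) and by 0.82 with Aβ40 fibrils (SE 0.14, adjusted p = 4.65e-04).

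The zinc sensor Mtf1 had 27.9, 29.9 and 22.9 CPM in control microglia, 38.0, 25.5 and 30.3 CPM with Aβ42 and 43.0, 39.1 and 42.7 CPM with Aβ40 fibrils. The Aβ42 libraries overlapped the controls and the Aβ40 libraries were above them. Against control, the log2 difference of Mtf1 was 0.17 ± 0.16 (adjusted p = 0.384, not called) with Aβ42 and 0.63 ± 0.16 (adjusted p = 0.00804) with Aβ40 fibrils. The median log2 fold change of the 8 members was 0.50 with Aβ42 and 0.47 with Aβ40 fibrils, beside 0.01 over all genes tested in each comparison.

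**Figure D3:**
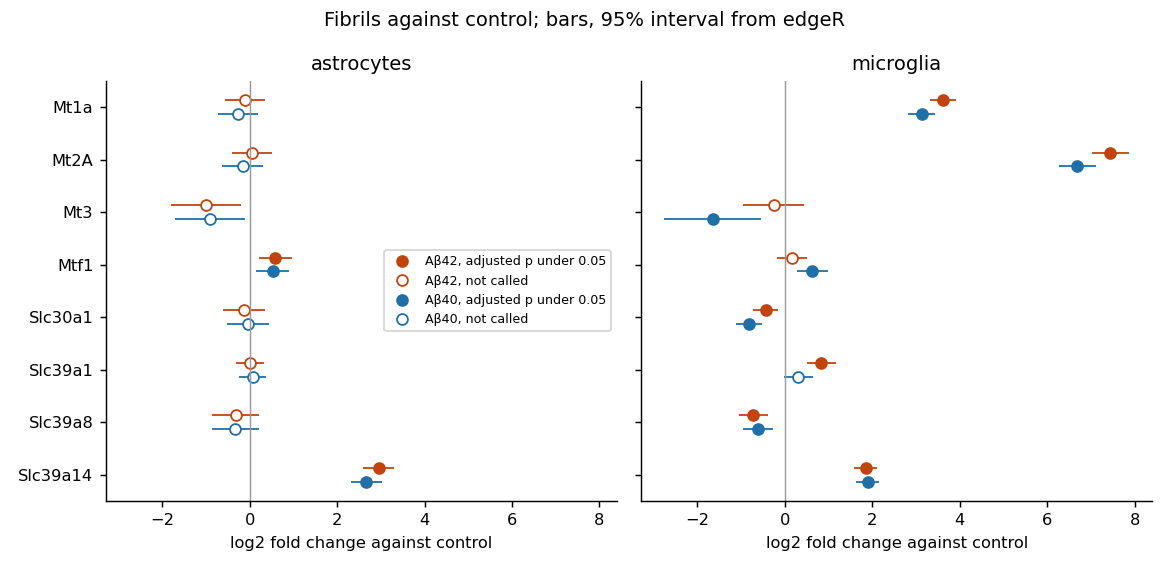
Fitted log2 fold change of each member against control, with its 95% interval, for Aβ42 and Aβ40 fibrils in astrocytes (left) and microglia (right). Filled points have an adjusted p under 0.05. Mt1a and Mt2A lie near 0 in astrocytes and between 3.13 and 7.45 in microglia, and Slc39a14 is called in all 4 comparisons.

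Compared directly in microglia, 3 members were higher with Aβ42 than with Aβ40 fibrils and 0 were lower, against 11.3% and 9.01% of all genes tested. These were Mt2A at a log2 difference of 0.75 ± 0.13 (adjusted p = 0.00900), Mt1a at 0.49 ± 0.12 (adjusted p = 0.0248) and Slc39a1 at 0.52 ± 0.15 (adjusted p = 0.0361). The fit of the compared groups alone, and the fit with the replicate number as a block, called 1 of the 3. Leaving out 1 library gave 0 calls without Aβ40 replicate 3, 1 without Aβ40 replicate 1, Aβ40 replicate 2 or Aβ42 replicate 3, 2 without Aβ42 replicate 2 and 6 without Aβ42 replicate 1, so the number of calls rests on single libraries. The difference of Mt2A kept an adjusted p under 0.05 in 12 of 13 alternatives, with values between 0.61 and 0.84. For Slc39a14 the difference was -0.04, with a 95% interval from -0.29 to 0.20. Depth was uneven in this comparison. Aβ42 replicates 1, 2 and 3 had 2613723, 22274367 and 17687416 reads on genes, and the Aβ40 libraries had 2271834 to 4425805. Slc39a1 was lowest of the Aβ42 libraries in replicate 1, at 266 CPM, and Mt1a was highest there, at 160 CPM. The part of depth in these differences was not tested.

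In astrocytes, 2 of the 8 members rose and 0 fell with each fibril. Over all 11690 genes tested, 16.5% were called higher and 20.4% lower with Aβ42, and 14.9% and 18.4% with Aβ40 fibrils. The 2 comparisons share their control libraries. The median log2 fold change of the members was -0.05 with Aβ42 and -0.10 with Aβ40 fibrils, and that of all genes was 0.00 in both.

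Slc39a14 was the member with the greatest change. It had 34.0, 52.7 and 38.8 CPM in control astrocytes, 313, 337 and 320 CPM with Aβ42 and 283, 255 and 259 CPM with Aβ40 fibrils. The 3 groups did not overlap. The log2 fold change was 2.95 ± 0.16 (adjusted p = 1.79e-07) with Aβ42 and 2.67 ± 0.16 (adjusted p = 4.02e-07) with Aβ40 fibrils, positions 142 and 161 of 11690 genes by p-value, and it was called under all 13 alternatives in both.

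Mtf1 had 12.5, 20.6 and 17.9 CPM in control astrocytes, 26.4, 24.9 and 25.8 CPM with Aβ42 and 23.9, 26.3 and 23.8 CPM with Aβ40 fibrils. All treated libraries were above the controls. On the log2 scale it was higher by 0.58 ± 0.17 (adjusted p = 0.0195) and 0.52 ± 0.17 (adjusted p = 0.0346), called in 10 and 6 of 13 alternatives, with adjusted p-values up to 0.0551 and 0.0980.

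The inducible metallothioneins were high in astrocytes with and without fibrils. Mt2A had 501, 283 and 336 CPM in controls, 347, 418 and 395 CPM with Aβ42 and 410, 283 and 307 CPM with Aβ40 fibrils. Mt1a had 165, 85.4 and 111 CPM, then 113, 121 and 97.5 CPM, and 110, 97.7 and 93.7 CPM. The control libraries spanned or overlapped the treated ones for both genes, and control replicate 1 was the highest of all 9. For Mt2A the log2 fold change was 0.05 with Aβ42 (95% interval -0.41 to 0.52) and -0.16 with Aβ40 fibrils (-0.63 to 0.30). For Mt1a it was -0.12 (-0.57 to 0.34) and -0.26 (-0.72 to 0.20). Mt1a with Aβ40 fibrils was called lower, at -0.43, in 1 of 13 alternatives, the one without control replicate 2.

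Mt3 varied most of the members among the control astrocytes, with a coefficient of variation of 59.9%, against 11.6% with Aβ42 and 9.87% with Aβ40 fibrils. It had 408, 103 and 254 CPM in controls, 131, 140 and 111 CPM with Aβ42 and 134, 122 and 149 CPM with Aβ40 fibrils. Control replicates 1 and 3 were above all treated libraries and control replicate 2 was below them. Its log2 fold change was -0.998 ± 0.36 (adjusted p = 0.0517) and -0.91 ± 0.36 (adjusted p = 0.0766), neither past the threshold. It was called lower under 4 of 13 alternatives with Aβ42 and 2 of 13 with Aβ40 fibrils, DESeq2's Wald test in both and, for Aβ42, edgeR with library totals and with no filter among them. Without control replicate 2 it was -1.36 and -1.28, and called in both comparisons, while without control replicate 1 it was -0.48 and -0.40. The summed astrocyte markers were also lower with fibrils, at 5279 to 5535 CPM with Aβ42 and 5811 to 6136 CPM with Aβ40 against 7552 to 8833 CPM in controls. Gfap and Slc1a3 were lower, but Aldh1l1 went from 29.0 to 48.5 CPM in controls to 94.4 to 135 CPM with fibrils, Slc1a2 from 4.71 to 6.70 CPM to 13.02 to 16.1 CPM and Aqp4 from 1226 to 1876 CPM to 1859 to 2294 CPM. The part of these markers in the values of Mt3 was not tested.

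The other transporters gave no call in astrocytes. Slc30a1 ranged from 27.3 to 50.0 CPM in controls and from 30.3 to 42.7 CPM with fibrils, with log2 fold changes of -0.13 (95% interval -0.61 to 0.36) and -0.04 (-0.53 to 0.44). Slc39a1 ranged from 237 to 313 CPM and from 245 to 316 CPM, with 0.01 (-0.31 to 0.32) and 0.06 (-0.25 to 0.38). Slc39a8 ranged from 9.85 to 19.1 CPM and from 9.41 to 12.9 CPM, with -0.32 (-0.86 to 0.22) and -0.33 (-0.86 to 0.21).

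Between the fibrils, 0 of the 8 members differed in astrocytes by edgeR's test, where 0.0599% of all genes were called higher and 0.0257% lower with Aβ42. At an unadjusted p under 0.05 the count was also 0, and DESeq2's Wald test called 0. The 95% interval of the log2 difference between Aβ42 and Aβ40 was -0.04 to 0.61 for Slc39a14, -0.31 to 0.60 for Mt1a and -0.25 to 0.68 for Mt2A.

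The untreated cell types differed in 7 of the 8 members, with 4 higher and 3 lower in astrocytes. This comparison used the 11582 genes that are listed for both cell types and passed the filter, of which 34.5% were higher and 34.2% lower in astrocytes. The tables of the cell types were counted on different gene lists, which can shift a gene between them. Scaling by library totals moved the median of all genes by 0.28 toward astrocytes on the log2 scale and the share of calls that were higher there from 50.2% to 62.6%.

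The 3 metallothioneins were higher in untreated astrocytes, Mt2A by 7.48 ± 0.29 on the log2 scale (adjusted p = 4.01e-14), Mt3 by 5.91 ± 0.42 (adjusted p = 2.41e-10) and Mt1a by 3.13 ± 0.20 (adjusted p = 5.86e-11). Slc39a14 was higher by 0.42 ± 0.14 (adjusted p = 0.0147), called in 8 of 13 alternatives. Mtf1 was lower in astrocytes at -0.90 ± 0.17 (adjusted p = 1.09e-04), Slc30a1 at -1.44 ± 0.19 (adjusted p = 2.09e-06) and Slc39a8 at -1.73 ± 0.21 (adjusted p = 5.53e-07). Slc39a1 differed by 0.28 ± 0.16 (adjusted p = 0.122).

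Ordered by level across the 6 groups on the scale of all 18 libraries, Mt2A was highest in Aβ42-treated astrocytes at 367 CPM, then in control astrocytes at 349, Aβ42-treated microglia at 344, Aβ40-treated astrocytes at 316, Aβ40-treated microglia at 202 and control microglia at 1.99 CPM. The first 4 groups overlapped with their neighbours, and the last 2 stood apart from each other and from the rest. Mt1a ran from 158 CPM in Aβ42-treated microglia to 94.96 CPM in Aβ40-treated astrocytes with each neighbour overlapping, and only control microglia, at 12.8 CPM, stood apart. For Mt3 the 3 astrocyte groups, at 238, 128 and 121 CPM, overlapped and stood apart from the microglia groups at 3.78 CPM and less.

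For Slc39a14 the order was Aβ42-treated astrocytes at 307 CPM, Aβ40-treated astrocytes at 251, Aβ40-treated microglia at 108, Aβ42-treated microglia at 106, control astrocytes at 39.1 and control microglia at 29.2 CPM. The treated microglia overlapped each other, the controls of the cell types overlapped, and the other neighbours did not. For Slc30a1, Slc39a8 and Mtf1 the 3 microglia groups came before the 3 astrocyte groups. Control microglia were the highest group for Slc30a1 at 93.1 CPM and for Slc39a8 at 40.7 CPM, and Aβ40-treated microglia for Mtf1 at 46.2 CPM. Slc39a1 was highest in Aβ42-treated microglia at 397 CPM, and every neighbouring pair overlapped down to control microglia at 221 CPM.

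The responses of the cell types were compared by the interaction of cell type and treatment. For Aβ42 fibrils it was called for 4 members, 1 with a higher change in astrocytes and 3 with a lower one, against 18% and 19.3% of all genes. For Aβ40 fibrils it was called for 2 in each direction, against 16.5% and 16%. The change of Mt2A in astrocytes minus that in microglia was -7.39 ± 0.34 (adjusted p = 1.30e-11) for Aβ42 and -6.84 ± 0.35 (adjusted p = 5.03e-11) for Aβ40 on the log2 scale. For Mt1a it was -3.72 ± 0.27 (adjusted p = 3.73e-09) and -3.37 ± 0.27 (adjusted p = 1.74e-08). The change of Slc39a14 was larger in astrocytes, by 1.11 ± 0.20 (adjusted p = 1.94e-04) and 0.80 ± 0.20 (adjusted p = 0.00421). Slc39a1 differed for Aβ42 at -0.82 ± 0.22 (adjusted p = 0.00633) and Slc30a1 for Aβ40 at 0.80 ± 0.27 (adjusted p = 0.0314, called in 8 of 19 alternatives, with adjusted p-values up to 0.0999).

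Beyond the members, a list of 32 other genes of zinc and copper handling was looked up, of which 30 had a row. The metallothionein Mt4 had 0 counts in all 18 libraries, which allows up to 0.130 to 1.38 CPM by library. Of 24 list genes tested in astrocytes, 6 rose and 3 fell with Aβ42 (16.5% and 20.4% over all genes), and 5 rose and 3 fell with Aβ40 fibrils (14.9% and 18.4%). Of 22 tested in microglia, 5 rose and 5 fell with each fibril, where the shares over all genes were 27.1% and 26.6% with Aβ42 and 19.6% and 21.4% with Aβ40, and the microglia counts lie near them. The median log2 fold change of the list was 0.16, 0.12, 0.08 and 0.04 in these 4 comparisons.

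Within the list, Slc39a12, a zinc importer known from brain and astrocytes, fell in astrocytes from 53.4, 77.6 and 64.9 CPM in controls to 25.7, 24.9 and 31.5 CPM with Aβ42 and 31.2, 27.3 and 30.0 CPM with Aβ40 fibrils. The treated libraries were all below the controls. It fell by 1.26 (SE 0.16, adjusted p = 1.28e-04) and by 1.15 (SE 0.16, adjusted p = 2.63e-04) on the log2 scale. In microglia it was low, at 34 to 50 reads in the controls, and fell by 1.005 on the log2 scale with Aβ42 fibrils (SE 0.22, adjusted p = 0.00232), and its log2 fold change with Aβ40 fibrils was -0.63 (adjusted p = 0.0772, not called).

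Slc30a10, a manganese exporter of the zinc exporter family, fell by 2.12 (SE 0.35, adjusted p = 6.15e-04) and 2.14 (SE 0.33, adjusted p = 4.59e-04) in astrocytes, from 10, 10 and 50 reads in controls to 3 to 15 reads with fibrils. Slc39a4, an importer known from intestinal zinc uptake, fell by 0.87 (SE 0.22, adjusted p = 0.00936) with Aβ42 and by 1.18 (SE 0.22, adjusted p = 0.00171) with Aβ40 fibrils.

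Of the copper genes, Atp7a, a copper-exporting ATPase, rose in astrocytes by 1.20 ± 0.33 (adjusted p = 0.0149) with Aβ42 and 1.14 ± 0.33 (adjusted p = 0.0207) with Aβ40 fibrils. Cox17, which delivers copper to cytochrome c oxidase in mitochondria, rose in microglia from 61.5, 39.8 and 53.2 CPM to 118, 103 and 119 CPM with Aβ42 fibrils, by 1.13 ± 0.15 on the log2 scale (adjusted p = 4.71e-05), and by 0.93 ± 0.15 (adjusted p = 3.19e-04) with Aβ40 fibrils. No treated library overlapped the controls. Of 8 copper genes tested in each cell type, 4 rose and 0 fell with Aβ42 and 3 rose and 0 fell with Aβ40 fibrils in astrocytes, beside the shares over all genes given above. In microglia 3 rose and 3 fell with Aβ42, and 3 rose and 4 fell with Aβ40 fibrils (3 with DESeq2 size factors).

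**Figure D4:**
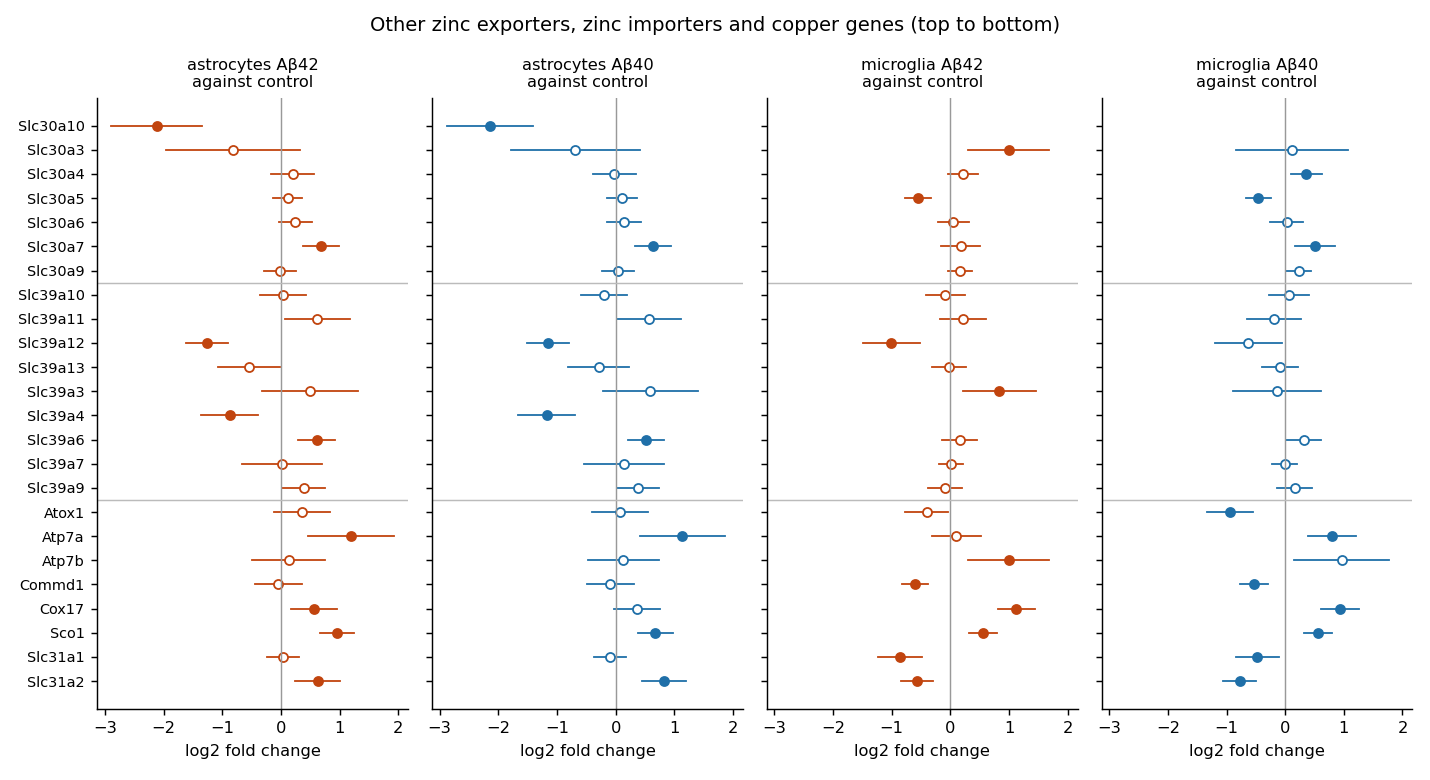
Fitted log2 fold change against control with 95% interval for the other zinc exporters, zinc importers and copper genes that were tested, in 4 comparisons. Filled points have an adjusted p under 0.05. No gene of the list reaches the change of Mt2A in microglia. The lowest values are those of Slc30a10 in astrocytes, at -2.12 and -2.14, from 3 to 15 reads in the treated libraries.

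Likeness of pattern was taken as Pearson's r of log2 CPM over the 18 libraries among 11582 genes, a description in which the points share cell type and treatment. Mt2A and Mt1a had r = 0.97 with each other, 0.85 over the 9 astrocyte libraries and 0.998 over the 9 microglia libraries. By ranks over the 18 libraries, Spearman's rho of this pair was 0.63. The pattern most like Mt1a after Mt2A was that of Nov (r = 0.97), and those most like Mt2A were Plp2 and Fjx1 (both 0.98). Over the 9 astrocyte libraries alone, r was 0.24 for Nov with Mt1a and 0.19 and 0.37 for Plp2 and Fjx1 with Mt2A. Over the 9 microglia libraries it was 0.98 for Nov and 0.99 for Plp2 and Fjx1. For Mt3 the genes most like it over the 18 libraries were Gfap and Nr2f1 (both 0.99), for Slc39a14 Has2 and Ccl5 (both 0.98) and for Slc39a8 Snx2 and Brd7 (both 0.98). For Mtf1 they were Kif16b (0.97) and Urb2 (0.96), for Slc30a1 Nfxl1 (0.96) and Rab14 (0.95) and for Slc39a1 Kctd5 and Ssr2 (both 0.92).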

How the data were processed

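Poly-A libraries of a stranded kit were sequenced from cultured rat microglia and astrocytes. Per the study's methods, the authors aligned the reads to rn5 with STAR, used Salmon for quantification and DESeq2 for gene counts, and per the deposited tables each library has a whole-number count of reads for each gene, not normalized. Whether counting used strand is not given in the sources used here. Reads on no gene or on more than 1 made up 21.7% to 34.2% of each library and stayed out of all totals. The symbol Mt1 of the astrocyte tables was read as Mt1a.

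Counts were scaled by TMM, filtered by filterByExpr and fitted by glmQLFit (edgeR 4.0.16, R 4.3.3) with 9 libraries per cell type, or all 18 for comparisons between cell types. The SE is the fold change divided by the square root of F. DESeq2 1.42.0 gave size factors and a Wald test as alternatives. Other alternatives were scaling by library totals, fits with no filter or with 10 counts in every library, fits of only the compared groups, a replicate block, and fits without each library in turn. Ratios had 0.5 added to each count (alternative 5) and were tested in scipy by exact permutation. Promoters were from RefSeq (GRCr8), and 7 of 8 members had one.

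Members and lists were chosen with earlier results of these data known. All members are named. Of the zinc and copper list, up to 3 genes per fibril comparison with the smallest p among those called and changed by 2-fold or more are named, and for likeness the 2 genes with the highest r (prior count 2). In simulated data, 73.7% of genes changed by 2-fold and 100% of those changed by 8-fold were called for astrocytes with Aβ42 (11598 genes), 93% and 100% for microglia with Aβ42 (10703 genes), and 42.3% and 98.0% for the Aβ42 interaction (11356 genes). The simulation gave every gene the same dispersion, and equal means in all groups apart from the changed genes. The real genes differ in spread, so these rates are not the power for single members.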

Additional observations from a re-analysis of the deposited data

Results flagged for a closer look

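The response to fibrils differed between the cell types, by the interaction in edgeR, for these members, on the log2 scale and as astrocytes minus microglia. For Aβ42 fibrils the values were -7.39 for Mt2A, -3.72 for Mt1a, -0.82 for Slc39a1 and 1.11 for Slc39a14. For Aβ40 fibrils they were -6.84 for Mt2A, -3.37 for Mt1a, 0.80 for Slc30a1 and 0.80 for Slc39a14. All except Slc30a1 were called under each of the 19 alternatives, and Slc30a1 was called under 8. These alternatives include leaving out each of the 12 libraries in turn.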

How the results depend on the processing

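Of 497 member values from alternatives in scaling, filter, test, samples or block, 475 kept their direction and their side of the threshold. The fit of the compared groups alone called 1 member for Aβ42 and 1 for Aβ40 in astrocytes and 1 between the fibrils in microglia. Library totals called 1 member for Aβ40 in astrocytes and turned Slc39a1 with Aβ42 in astrocytes to -0.0442. Whether the replicate numbers pair the libraries is not known. Deviations of same-numbered libraries had correlations of -0.53 to 0.36 in astrocytes and -0.19 to 0.22 in microglia. Those of different-numbered libraries were -0.46 to 0.53 and -0.21 to 0.23, and with 3 replicates in a group these values cannot settle it. The replicate block called 1 for Aβ40 in astrocytes and 1 between the fibrils in microglia. With 1 library left out, the calls ranged from 1 to 3 for Aβ42 and from 1 to 4 for Aβ40 in astrocytes (4 without control replicate 2), from 0 to 6 between the fibrils in microglia, and from 4 to 7 for the Aβ42 interaction (7 without astrocyte control replicate 2). The cause of these changes was not tested.

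Values near 0 changed sign when 1 library was left out. In astrocytes with Aβ42 the ranges were -0.29 to 0.18 for Mt1a, -0.10 to 0.34 for Mt2A, -0.27 to 0.13 for Slc30a1, -0.11 to 0.10 for Slc39a1 and -0.56 to 0.0142 for Slc39a8. With Aβ40 they were -0.43 to 0.0362 for Mt1a, -0.33 to 0.12 for Mt2A, -0.19 to 0.21 for Slc30a1, -0.0483 to 0.14 for Slc39a1, -0.57 to 0.0116 for Slc39a8 and -0.0205 to 0.16 for the log2 ratio of Mt2A to Mt1a. Between the fibrils in astrocytes they were -0.19 to 0.0577 for Slc30a1, -0.12 to 0.0386 for Slc39a1 and -0.15 to 0.11 for Slc39a8. In microglia they were -0.45 to 0.21 for Mt3 with Aβ42 and -0.11 to 0.0382 for Slc39a14 between the fibrils, and for Mtf1 in the Aβ40 interaction -0.26 to 0.0325. Depth limits Mt3 in microglia, where 3 to 5 reads were counted with Aβ40 fibrils.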

Other observations

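Other metal-handling genes were compared between untreated astrocytes and microglia, where 34.5% of all genes were higher and 34.2% lower in astrocytes. Of 8 copper genes tested, 7 were lower in astrocytes and 0 higher, with a median log2 difference of -1.36 (5 lower and 0 higher, median -1.08, with library totals). Among them, chosen after their values were seen, were the copper-exporting ATPase Atp7a at -3.35 (adjusted p = 5.28e-09) and the copper importer Slc31a1 at -2.38 (adjusted p = 5.86e-11). Of 9 other zinc importers tested, 3 were higher in astrocytes and 2 lower, no larger a share than over all genes. Among the 3, and also chosen after their values were seen, were Slc39a4 at 3.87 (adjusted p = 5.61e-07) and Slc39a12 at 3.19 (adjusted p = 2.02e-11). Slc39a4 had only 5, 1 and 7 reads in the control microglia libraries, so the size of its difference is uncertain. The adjusted p-values are from edgeR.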
